A study of Macaca mulatta with 45 samples.

Results

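The genes described here are the heat shock proteins and the DNAJ (J-domain) co-chaperones measured in the brain of the rhesus macaque. They were chosen by symbol, with earlier results of these data known. The rule took every gene whose rhesus Ensembl symbol is an HSPA, HSPB, HSPD, HSPE, HSPH, HSP90, DNAJA, DNAJB or DNAJC name. It gave 53 of the 30246 gene IDs in the count table. The 53 were 22 DNAJC, 6 DNAJB and 4 DNAJA genes, 8 genes of the HSP70 family, 3 of the HSP110 family, 4 small heat shock proteins, 2 HSP90 genes, the mitochondrial pair HSPD1 (HSP60) and HSPE1 (HSP10), and 2 genes taken in by their names, HSPBP1 and HSPBAP1, which bind heat shock proteins. Of these, 50 had enough reads to be tested. DNAJB12 had 0 counts in every library, HSPB7 had at most 5 and DNAJC22 at most 7. HSPA1A, HSPA6, HSP90AA1, HSPB1 and DNAJC5 were not analysed here.

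Total RNA was sequenced from 3 brain regions of 15 macaques, with 1 library per animal and region, so that 45 libraries fell into 9 groups of 5. In the fWBI group the whole brain was irradiated in fractions, 40 Gy as 8 fractions of 5 Gy, and tissue was taken 12 months later. In the TBI group the whole body was irradiated with a single dose of 6.75, 7.2 or 8.05 Gy, 6 to 9 years before necropsy. The control animals were themselves irradiated, with 10 Gy to the thorax, and carry a labelled brain dose of 0.1 Gy. Dose, schedule, field and elapsed time differ together between fWBI and TBI and cannot be told apart. The labels used here give no age or sex. The regions were white matter (centrum semiovale), the hippocampus and the dorsolateral prefrontal cortex.

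Heat shock proteins bind unfolded or damaged proteins and help them to fold or to be degraded. HSP70 proteins work in cycles of ATP hydrolysis that J-domain proteins start and that nucleotide exchange factors, such as the HSP110 proteins and the BAG proteins, bring to an end. Small heat shock proteins hold unfolded proteins without using ATP, and HSP90 acts on nearly folded clients such as kinases and steroid receptors. When unfolded proteins build up in the cytosol, the heat shock factor HSF1 raises transcription of the inducible members, and in the endoplasmic reticulum a separate response raises HSPA5 and its partners.

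Total counts ran from 6625435 to 12541507 per library, and the 53 genes held 0.546 to 0.953% of them. Levels below are counts scaled to library size (CPM) after TMM scaling over the 45 libraries. They compare 1 gene between libraries and not different genes, because they are not divided by gene length. The white matter of control animals 1 and 3 stood apart: the mean of 13 neuronal markers was 4.21 to 5.28 log2 CPM in fWBI white matter and 4.50 to 5.33 in TBI white matter, against 8.36 and 7.36 in these 2 control libraries and 4.62 to 5.00 in the other 3 control white matter libraries. In the hippocampus and prefrontal cortex that mean lay between 8.27 and 8.94 log2 CPM. Oligodendrocyte markers had the opposite order, at 10.5 to 11.6 log2 CPM in white matter and 5.32 to 8.70 elsewhere. White matter was therefore also compared without those 2 control libraries, an alternative chosen after seeing the data. In bulk tissue, fewer cells of a type and less RNA per cell cannot be told apart.

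In fWBI white matter, 12 months after irradiation, the small heat shock protein HSPB8 rose, while the J-domain protein DNAJB5 and the HSP110 protein HSPA4L fell, all relative to control white matter. These 3 were the members called of 50 tested (6%), 1 higher and 2 lower, by the quasi-likelihood test of edgeR, with p-values adjusted (Benjamini-Hochberg) over all genes and a threshold of 0.05. Over all 15235 genes tested, 16.8% were called (8.82% higher and 8.03% lower), which is the background for that count; the difference between the shares was not tested. The median log2 fold change of the 50 was -0.09, against -0.03 for all genes, with 16 above and 34 (68%) below 0, against 54.7% of all genes below 0. Without the white matter of control animals 1 and 3, the median was -0.01 for the 50 and -0.01 for all genes, with 27 members (54%) and 51.3% of all genes below 0. HSPB8 was then the 1 member called of 50, against 10.8% of all genes. Without control animal 2, edgeR called 6 of 50 (1 higher, 5 lower). The share of all genes in that fit is not given here, so this count has no background.

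HSPB8 (ENSMMUG00000021232) is a small heat shock protein that works with the co-chaperone BAG3 and HSP70 to send misfolded proteins to autophagy. Its level in fWBI white matter was 228, 252, 204, 199 and 365 CPM, against 64.7, 159, 96.0, 154 and 177 CPM in control white matter. Every fWBI library lay above every control library, and 1 fWBI library stood well above the other 4. The log2 fold change was 0.95 ± 0.23 (SE, n = 5 animals each), with an adjusted p of 0.0102 from edgeR. The 2 lowest control values came from the libraries with high neuronal markers, and without them the log2 fold change was 0.64 ± 0.17 (edgeR adjusted p = 0.0287). Over 16 alternatives it ran from 0.64 to 1.09 and kept its call in each. TBI white matter had 180, 196, 185, 157 and 168 CPM, overlapping the control libraries, and its log2 fold change over control was 0.45 ± 0.23 (edgeR adjusted p = 0.319), or 0.12 ± 0.17 without control animals 1 and 3. The fWBI libraries lay above all TBI libraries, but that difference was not called (0.50 ± 0.23, edgeR adjusted p = 0.236).

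BAG3 is no member of the set but the named partner of HSPB8, a nucleotide exchange factor for HSP70 that is itself a target of HSF1. It rose in fWBI white matter, to 33.8, 57.9, 47.4, 40.8 and 46.8 CPM, against 12.9, 22.5, 30.0, 23.6 and 18.5 CPM in control white matter. The fWBI libraries all lay above the control libraries. The log2 fold change was 1.09 ± 0.19 (SE, n = 5 each; edgeR adjusted p = 0.00095), and it was 1.10 ± 0.18 without control animals 1 and 3 (edgeR adjusted p = 0.000955). Against TBI white matter, with 21.2, 21.8, 15.3, 22.5 and 22.0 CPM, the fWBI level was higher by 1.15 ± 0.19 on the log2 scale (edgeR adjusted p = 0.00137). In the hippocampus and prefrontal cortex, BAG3 stayed at 13.0 CPM or less in every library, and no irradiation call was made there.

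Markers of several cell types moved in the same fWBI white matter libraries. The mean of 8 oligodendrocyte precursor markers was 3.51 to 4.33 log2 CPM there, against 5.53 to 6.33 in control white matter. The 5 microglia and macrophage markers of 9 listed that had a matching ID averaged 6.58 to 7.21 log2 CPM, against 4.83 to 5.90 in control white matter. For 6 of 8 astrocyte markers with a matching ID the ranges of the mean overlapped, at 8.82 to 9.40 against 9.00 to 9.24 log2 CPM. Their summed CPM did not overlap, at 6833 to 13404 in fWBI white matter, against 5624 to 6569 in control white matter. The 4 markers of ciliated, ependymal and choroid plexus cells of 7 listed that had a matching ID averaged 1.51 to 3.26 log2 CPM in fWBI white matter, against 0.55 to 1.43 in control white matter. No marker of these 4 lists was at 0 in any of these libraries, and the part of such changes in the levels of HSPB8 and BAG3 was not tested.

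**Figure D1:**
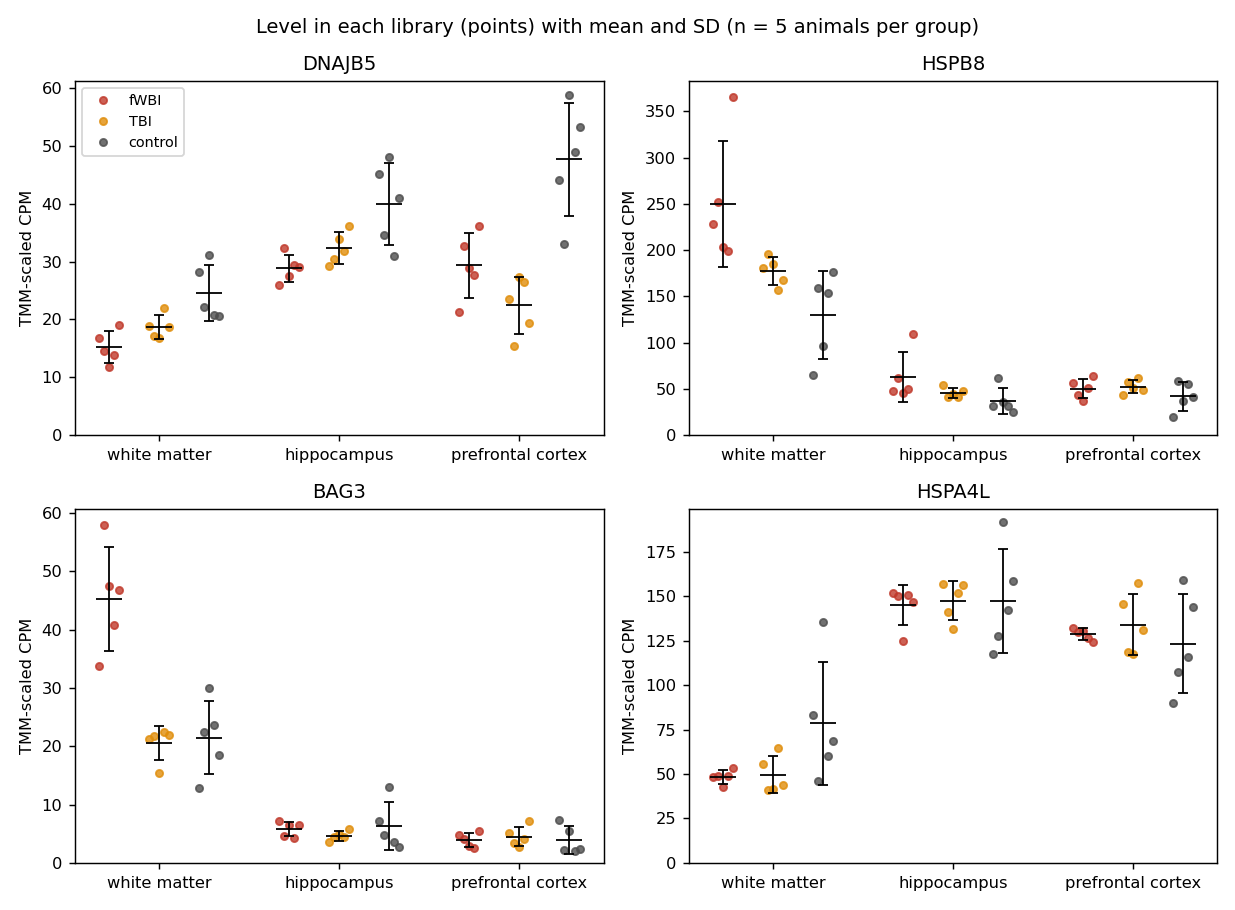
Level of DNAJB5, HSPB8, BAG3 and HSPA4L (TMM-scaled CPM, linear axis from 0) in each of the 45 libraries by region and treatment; points are animals, bars the mean and SD of 5. In white matter every fWBI point of HSPB8 and BAG3 lies above every control point and every fWBI point of DNAJB5 below every control point, while HSPA4L is 135 CPM in 1 control library.

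DNAJB5 (ENSMMUG00000022895) is a J-domain protein that stimulates HSP70, and in mouse heart it takes part in a redox-sensitive complex with HDAC4. Its level in fWBI white matter was 16.8, 14.6, 11.8, 13.9 and 19.1 CPM, against 28.2, 22.1, 31.2, 20.8 and 20.5 CPM in control white matter. Every fWBI library lay below every control library. The log2 fold change was -0.69 ± 0.16 (SE, n = 5 each; edgeR adjusted p = 0.00651). The 2 highest control values were again those of animals 1 and 3, and without them the fold change was -0.45 ± 0.15 and the call was lost (edgeR adjusted p = 0.0719).

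DNAJB5 was also lower in irradiated than in control animals in the other comparisons, although none of these passed the threshold. In the prefrontal cortex it had 21.3, 32.7, 29.0, 27.8 and 36.1 CPM in fWBI animals and 23.5, 15.5, 27.3, 26.5 and 19.5 CPM in TBI animals, against 44.2, 33.1, 58.9, 48.9 and 53.3 CPM in controls. The TBI libraries all lay below the control libraries, and the fWBI libraries overlapped them through control animal 2. The log2 fold changes were -0.69 ± 0.18 for fWBI (edgeR adjusted p = 0.0771) and -1.07 ± 0.18 for TBI (edgeR adjusted p = 0.074). In the hippocampus the levels were 26.0 to 32.4 CPM in fWBI animals and 29.3 to 36.2 CPM in TBI animals, against 31.0 to 48.1 CPM in controls. There the log2 fold changes were -0.47 ± 0.11 for fWBI (edgeR adjusted p = 0.0777) and -0.31 ± 0.11 for TBI (edgeR adjusted p = 0.387). In TBI white matter it was -0.40 ± 0.15 (edgeR adjusted p = 0.193), and -0.17 ± 0.15 without control animals 1 and 3 (edgeR adjusted p = 0.883). In each of these comparisons 5 of 5 irradiated libraries lay below the control mean, but fWBI and TBI share their control libraries and the 3 regions come from the same animals, so these values are not separate tests.

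The call of DNAJB5 outside white matter depended on the tool and on single animals. DESeq2 called it in the fWBI hippocampus (adjusted p = 0.0118), the fWBI prefrontal cortex (adjusted p = 0.0143) and the TBI prefrontal cortex (adjusted p = 0.000104). Without control animal 2, edgeR called all 3, with adjusted p of 0.0338, 0.0287 and 0.0219. Treatment within region took 36.9% of the variance of DNAJB5's log2 CPM over the 45 libraries, the highest share among the 50 members, against a median of 7.75% for members and 7.28% for all genes. Its RefSeq span overlaps a long non-coding RNA, and reads of the 2 cannot be told apart where strand was not used in counting.

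HSPA4L (ENSMMUG00000015245), an HSP110 protein and thus an exchange factor for HSP70, fell to 48.5, 48.9, 42.7, 48.8 and 53.5 CPM in fWBI white matter, against 83.2, 45.8, 135, 60 and 68.5 CPM in control white matter. The groups overlapped, and the 2 highest values belonged to control animals 1 and 3. The log2 fold change was -0.69 ± 0.22 (SE, n = 5 each) with an edgeR adjusted p of 0.0463, and the call was lost in 11 of 16 alternatives. Without those 2 libraries it was -0.24 ± 0.16 (edgeR adjusted p = 0.432).

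The other HSP110 gene with a large difference was HSPH1, which is strongly heat-inducible. It had 193, 184, 190, 228 and 251 CPM in fWBI white matter and 266, 102, 154, 225 and 209 CPM in TBI white matter, against 452, 172, 653, 286 and 310 CPM in control white matter. Only control animal 2 lay within the range of the irradiated animals. The log2 fold changes were -0.84 ± 0.30 for fWBI (edgeR adjusted p = 0.0684) and -0.97 ± 0.30 for TBI (edgeR adjusted p = 0.135). Without control animals 1 and 3 they were -0.27 ± 0.26 and -0.41 ± 0.26.

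HSPA12A, a distant HSP70 relative, had the largest fold changes of the set against control in white matter and its highest values in the same 2 control libraries. It had 9.02 to 18.6 CPM in fWBI animals and 5.73 to 15.2 CPM in TBI animals, against 106 and 59.3 CPM in control animals 1 and 3 and 8.53 to 10.8 CPM in the other 3 controls. Its log2 fold changes against control, -1.57 ± 0.61 for fWBI and -1.88 ± 0.62 for TBI, did not pass the threshold (edgeR adjusted p = 0.0885 and 0.14). Without the 2 libraries they were 0.47 ± 0.29 and 0.16 ± 0.29. DNAJA4, a cytosolic J-domain protein, showed the same 2 libraries, at 34.1 and 24.4 CPM against 7.02 to 12.3 CPM in the other controls.

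**Figure D2:**
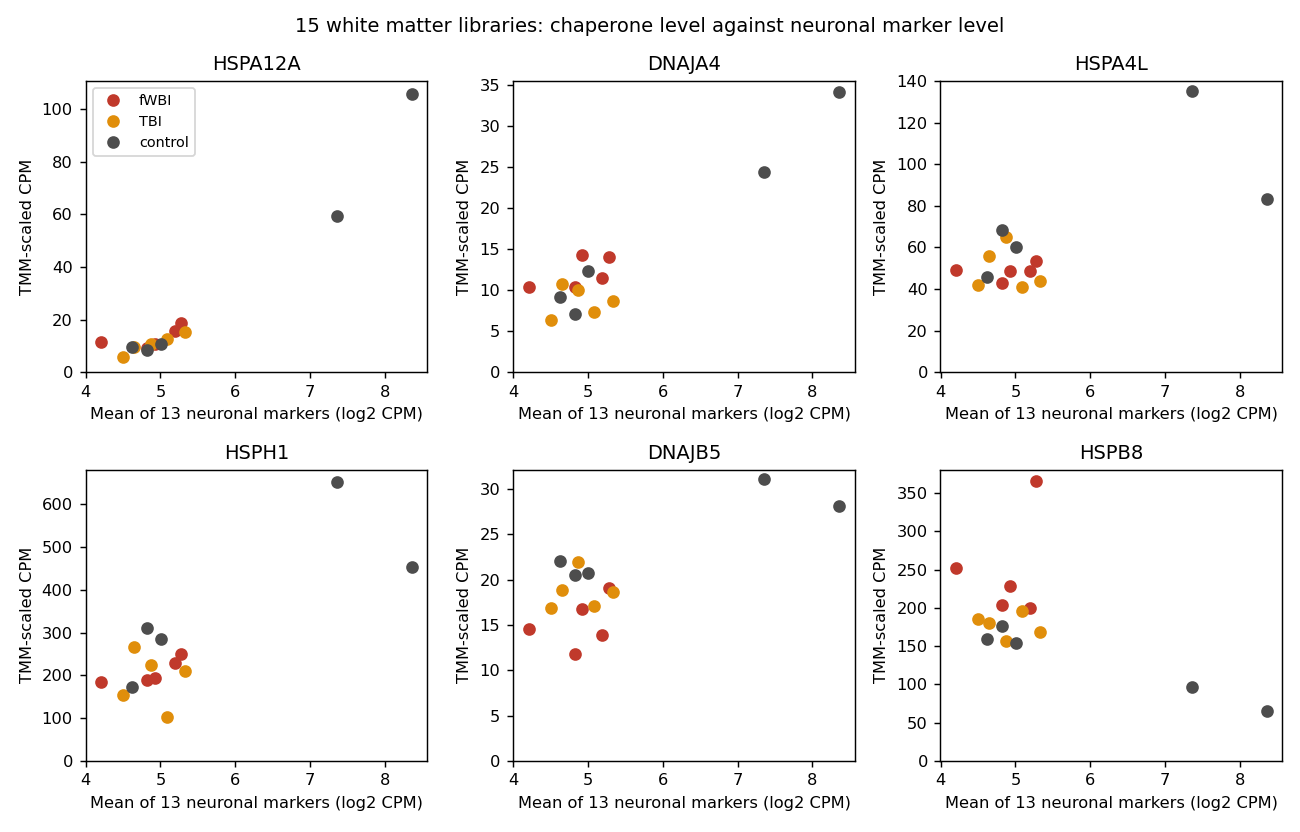
Level of 6 members (TMM-scaled CPM) in the 15 white matter libraries, against the mean log2 CPM of 13 neuronal markers in the same library; colours mark the treatment. The 2 control libraries at 7.36 and 8.36 hold the highest HSPA12A, DNAJA4, HSPA4L, HSPH1 and DNAJB5 and the lowest HSPB8.

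HSPB6, a small heat shock protein best known from muscle, had 1.87, 3.70, 1.72, 1.39 and 1.61 CPM in fWBI white matter, against 0.987, 0.778, 1.20, 1.35 and 1.19 CPM in control white matter. The groups did not overlap, which held for 3 of the 50 members and 10.3% of all genes. The log2 fold change of 0.90 ± 0.33 did not pass the threshold (edgeR adjusted p = 0.0781). The RefSeq span of HSPB6 overlaps IGFLR1, which rose by 1.47 ± 0.31 on the log2 scale in the same libraries (edgeR adjusted p = 0.00391), and their reads cannot be told apart where strand was not used in counting.

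A list of heat-inducible cytosolic and mitochondrial genes held 10 tested members: DNAJA1, DNAJB1, HSP90AB1, HSPA1L, HSPA4L, HSPA8, HSPB8, HSPD1, HSPE1 and HSPH1. HSPA1A, HSPA1B, HSPA6, HSP90AA1, HSPB1 and DNAJB4 of that list were not analysed. The list also holds the constitutive HSPA8, so it is not a pure set of inducible genes. Of the 10 in fWBI white matter, HSPB8 was higher, HSPA4L lower and 8 not called, which is 20% called, against 16.8% of all genes. Of the 10 fold changes 8 were negative, against 54.7% of all genes. Without control animals 1 and 3, HSPB8 was the 1 of these called and 6 of the 10 were negative, against 51.3% of all genes. DNAJB1, the J-domain protein most closely tied to the heat shock response, had 21.0, 31.5, 24.1, 27.3 and 37.8 CPM in fWBI white matter, against 18.4, 19.9, 50.6, 27.5 and 28.0 CPM in control white matter. These ranges overlapped fully, and the log2 fold change was -0.02 ± 0.28 (edgeR adjusted p = 0.982). HSPA8, the constitutive cytosolic HSP70, had a log2 fold change of -0.24 ± 0.16 (edgeR adjusted p = 0.337). The 4 DNAJA genes, none of them called, had values between -0.53 and -0.08. Without control animals 1 and 3 these lay between -0.21 and 0.38, with 2 of the 4 above 0.

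Of the wider pathway, 2 of 18 tested co-chaperones of HSP70 and HSP90 were called in fWBI white matter, BAG3 and FKBP5, both higher, which is 11.1%, against 16.8% of all genes. FKBP5, an HSP90 co-chaperone that glucocorticoids induce, had 27.4, 24.1, 34.0, 22.8 and 21.7 CPM in fWBI white matter, against 9.65, 18.7, 13.6, 12.7 and 9.29 CPM in control white matter. The groups did not overlap, with a log2 fold change of 1.03 ± 0.34 (edgeR adjusted p = 0.0472), and the call was lost in 10 of 16 alternatives, including the one without control animals 1 and 3 (edgeR adjusted p = 0.171). In TBI white matter FKBP5 had 26.6, 76.8, 52.0, 17.4 and 24.3 CPM, with 4 libraries above all controls and a log2 fold change of 1.62 ± 0.34 (edgeR adjusted p = 0.112). None of the 4 heat shock factor genes tested and none of the 13 genes of the CCT chaperonin and prefoldin was called in fWBI white matter, and at an unadjusted p under 0.05 the counts were also 0 for both lists, against 29.5% of all genes.

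In the endoplasmic reticulum, HSPA5 (BiP, the main HSP70 of that compartment; ENSMMUG00000005217) was higher in fWBI than in TBI white matter. It had 146, 188, 187, 149 and 171 CPM in fWBI white matter, against 123, 77.3, 57.8, 124 and 88.8 CPM in TBI white matter. Every fWBI library lay above every TBI library. The log2 fold change was 0.84 ± 0.20 (SE, n = 5 each; edgeR adjusted p = 0.0152), the 1 call among 50 members (2%) in that comparison, against 7.36% of all genes (4.82% higher and 2.54% lower). HSPA5 kept its call in 15 of 15 alternatives, with values from 0.71 to 0.96. Control white matter had 110, 187, 203, 201 and 166 CPM, overlapping fWBI, and the log2 fold change of fWBI over control was -0.03 ± 0.20 (edgeR adjusted p = 0.942). TBI against control gave -0.88 ± 0.20, which edgeR did not call (adjusted p = 0.118) and DESeq2 did (adjusted p = 0.00649). RABEPK, whose RefSeq span overlaps HSPA5, did not share this pattern, with a log2 fold change of -0.19 ± 0.15 between fWBI and TBI (edgeR adjusted p = 0.54). Markers of some cell types, but not of others, also lay apart between these 2 groups. Oligodendrocyte precursor markers averaged 3.51 to 4.33 log2 CPM in fWBI white matter, against 5.93 to 6.15 in TBI white matter, and microglia and macrophage markers 6.58 to 7.21 against 6.08 to 6.37. Those of ciliated, ependymal and choroid plexus cells averaged 1.51 to 3.26 in fWBI white matter, against 0.45 to 1.00 in TBI white matter. The ranges overlapped for neuronal markers (4.21 to 5.28 against 4.50 to 5.33) and oligodendrocyte markers (10.8 to 11.4 against 11.2 to 11.4). They also overlapped for astrocyte markers (8.82 to 9.40 against 9.11 to 9.38) and endothelial and mural markers (4.98 to 5.63 against 5.12 to 5.80). The part of cell type differences in the level of HSPA5 was not tested.

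HSP90B1, the HSP90 of the endoplasmic reticulum, had 461, 445, 474, 508 and 548 CPM in fWBI white matter and 483, 325, 383, 569 and 420 CPM in TBI white matter. These groups overlapped. Among 12 genes of the endoplasmic reticulum stress response, 1 (8.33%) was called against TBI and against control, with 7.36% and 16.8% of all genes called in those comparisons. It was ERN1, the sensor kinase that splices XBP1. Its level was 10.0, 13.9, 13.0, 10.2 and 8.22 CPM in fWBI white matter and 5.88, 7.93, 5.55, 6.74 and 5.42 CPM in TBI white matter, against 5.04, 6.45, 6.08, 6.38 and 4.32 CPM in control white matter. The fWBI libraries lay above all TBI and control libraries. The log2 fold changes were 0.82 ± 0.18 against TBI (edgeR adjusted p = 0.00953) and 0.97 ± 0.18 against control (edgeR adjusted p = 0.00144). XBP1 was not called, with 0.34 ± 0.11 between fWBI and TBI (edgeR adjusted p = 0.0846).

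DNAJC13, an endosomal J-domain protein, had 183, 178, 187, 196 and 166 CPM in fWBI white matter, against 158, 153, 148, 146 and 163 CPM in TBI white matter. The groups did not overlap, which held for 3 of 50 members and 8.51% of all genes, and the difference was 0.25 ± 0.08 on the log2 scale. It missed the threshold in edgeR (adjusted p = 0.0589) and passed it in DESeq2 (adjusted p = 0.00609). HSPB6 had the next smallest p in this comparison, with 0.90 ± 0.33 (edgeR adjusted p = 0.135).

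No member was called by edgeR in the hippocampus or prefrontal cortex of irradiated animals. For fWBI against control, 0 of 50 were called in the hippocampus, against 0.742% of all genes, with 2 members at an unadjusted p under 0.05 (11.3% of all genes) and 1 called by DESeq2 (1.81% of all genes). In the prefrontal cortex 0 were called, against 1.17% of all genes, with 4 at an unadjusted p under 0.05 (13.6% of all genes) and 1 called by DESeq2 (3% of all genes). For TBI against control, edgeR called 0 of 50 members in white matter, the hippocampus and the prefrontal cortex, against 0.0722%, 0% and 0% of all genes. In those 3 comparisons 8, 6 and 5 members had an unadjusted p under 0.05, against 18.1%, 10.8% and 11.8% of all genes, and DESeq2 called 2, 0 and 1, against 4.96%, 0.391% and 1.64% of all genes. Between fWBI and TBI, edgeR called 0 members in the hippocampus and 0 in the prefrontal cortex, against 0.339% and 0.29% of all genes. At an unadjusted p under 0.05 the counts were 0 in the hippocampus and 3 in the prefrontal cortex, against 7.33% and 4.84% of all genes, and DESeq2 called 0 in both, against 0.88% and 0.599% of all genes.

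Besides DNAJB5, HSPB8 and DNAJC2 were among the members with the smallest p-values against control in the hippocampus and prefrontal cortex. In TBI white matter the smallest fell on HSPA5, HSPH1 and HSPA12A, whose values are given above. HSPB8 in the hippocampus had 47.5, 61.5, 45.3, 50 and 110 CPM in fWBI animals, against 32.0, 61.8, 35.4, 31.5 and 25.1 CPM in controls. The groups overlapped through control animal 2, and the log2 fold change of 0.76 ± 0.25 was called without that animal (edgeR adjusted p = 0.228 with it and 0.0331 without it). DNAJC2, a ribosome-bound J-domain protein that acts on nascent chains, had 52.8, 69.9, 60.5, 69.2 and 53.5 CPM in the fWBI prefrontal cortex, against 38.2, 55.8, 46.3, 47.6 and 49.3 CPM in controls. Its log2 fold change was 0.38 ± 0.11 (edgeR adjusted p = 0.126). In TBI animals it was 0.32 ± 0.11 in the prefrontal cortex (edgeR adjusted p = 0.278) and 0.23 ± 0.08 in the hippocampus (edgeR adjusted p = 0.354).

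HSPBP1, a nucleotide exchange factor of HSP70, gave -0.20 ± 0.10 in the fWBI hippocampus (edgeR adjusted p = 0.473). DNAJC14 gave -0.20 ± 0.09 in the fWBI prefrontal cortex (edgeR adjusted p = 0.355). DNAJC27 in the TBI prefrontal cortex had 93.8 to 104 CPM, against 73.8 to 91.9 CPM in controls, without overlap and without a call (0.23 ± 0.08; edgeR adjusted p = 0.275). Groups that do not overlap held for 2 of 50 members there, against 2.28% of all genes. DNAJB14 in the TBI hippocampus gave 0.18 ± 0.07 (edgeR adjusted p = 0.387). Between fWBI and TBI the members with the smallest p-values were far from the threshold. They were DNAJC1 in the prefrontal cortex (0.32 ± 0.14, edgeR adjusted p = 0.984) and DNAJC9 in the hippocampus (-0.18 ± 0.09, edgeR adjusted p = 0.735).

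**Figure D3:**
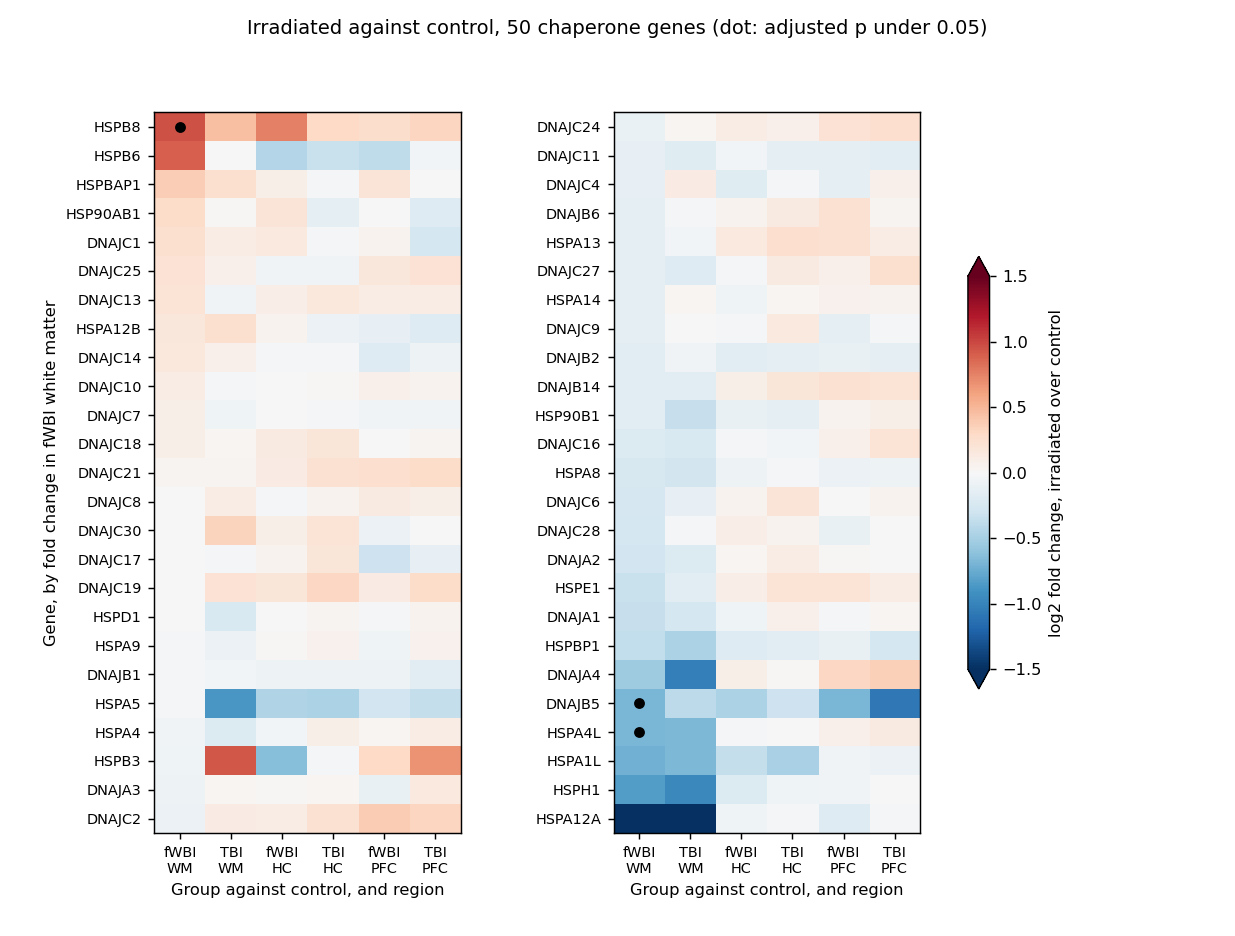
Log2 fold change of 50 chaperone genes against control for fWBI and TBI animals in 3 regions (WM white matter, HC hippocampus, PFC prefrontal cortex), ordered by the fWBI value in white matter; black dots mark an adjusted p under 0.05 from edgeR. The 3 dots are HSPB8, DNAJB5 and HSPA4L in fWBI white matter, and the DNAJB5 row is below 0 in all 6 columns.

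Whether the fWBI effect differed between regions was tested directly with animal as a block. Between white matter and prefrontal cortex, 3 of 50 members were called, against 10% of all genes (4.57% higher and 5.44% lower): HSPA4L (-0.71 ± 0.17, edgeR adjusted p = 0.00523), DNAJC2 (-0.46 ± 0.13, edgeR adjusted p = 0.0174) and DNAJC14 (0.37 ± 0.11, edgeR adjusted p = 0.0247). Between white matter and hippocampus HSPA4L was called alone (-0.62 ± 0.17, edgeR adjusted p = 0.0161), against 9% of all genes (4.15% higher and 4.86% lower). Without the white matter of control animals 1 and 3, edgeR called 0 members in either comparison, against 6.21% and 5.45% of all genes. HSPA4L was then at -0.37 ± 0.11 against prefrontal cortex (edgeR adjusted p = 0.0522) and -0.26 ± 0.11 against hippocampus (edgeR adjusted p = 0.227). With all libraries, DESeq2 called 4 and 1, against 12.3% and 10.7% of all genes. Leaving out fWBI animal 2 left 1 call against prefrontal cortex and leaving out control animal 2 gave 6. Against hippocampus, 0 were called without control animal 1 or 3 and 2 without control animal 2. The shares of all genes in these fits with 1 animal left out are not given here. The fWBI effect on HSPB8 was not shown to differ between white matter and prefrontal cortex (0.66 ± 0.25, edgeR adjusted p = 0.0899), nor was that on BAG3 (0.97 ± 0.38, edgeR adjusted p = 0.107; 0.30 ± 0.32 without those libraries) or DNAJB5 (0.02 ± 0.19, edgeR adjusted p = 0.979). Between hippocampus and prefrontal cortex edgeR called 0 members and 0% of all genes, with 0 members at an unadjusted p under 0.05 (1.82% of all genes) and 0 by DESeq2 (0.00602% of all genes).

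More members were called between regions than between treatments. White matter against prefrontal cortex gave 30 calls among 50 members in fWBI animals (10 higher, 20 lower), 31 in TBI animals (10 higher, 21 lower) and 25 in control animals (11 higher, 14 lower). Over all genes 73% (35.7% higher, 37.3% lower), 75.2% (37.2% higher, 38% lower) and 61% (29.6% higher, 31.4% lower) were called in fWBI, TBI and control animals, against 60%, 62% and 50% of members in those groups. These 3 comparisons used different animals, and 6 members were higher and 11 lower in all 3, which is 34% of the 50, against 54.6% of all genes. Region took a median of 48.65% of the variance of members' log2 CPM, against 56.17% for all genes.

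Among the small heat shock proteins, HSPB8 was higher in white matter in all 3 groups. Its log2 fold change over prefrontal cortex was 2.28 ± 0.13 in fWBI, 1.76 ± 0.11 in TBI and 1.65 ± 0.24 in control animals (SE, n = 5 each; the largest edgeR adjusted p was 0.000164). HSPB3, a small heat shock protein of muscle and nerve, was at low levels and higher in white matter in TBI (1.77 ± 0.20) and control animals (1.55 ± 0.23), and it was not called in fWBI animals (0.94 ± 0.58), where 1 white matter library had 0.101 CPM. CRYAB, the small heat shock protein alpha-B crystallin, which the symbol rule leaves out, rose by 3.56 ± 0.11, 3.67 ± 0.14 and 3.62 ± 0.28 on the log2 scale in fWBI, TBI and control animals. BAG3 rose by 3.52 ± 0.20, 2.21 ± 0.17 and 2.61 ± 0.36 in the same groups. HSPB6 went the other way, at -1.96 ± 0.28 in TBI and -1.90 ± 0.46 in control animals, and -0.69 ± 0.38 without a call in fWBI animals.

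DNAJB2, a J-domain protein that escorts ubiquitinated clients to the proteasome, was higher in white matter in all 3 groups. It had 283, 260, 270, 232 and 267 CPM in fWBI, 282, 289, 280, 302 and 264 CPM in TBI and 222, 294, 272, 314 and 364 CPM in control white matter. In the prefrontal cortex it had 116 to 148, 123 to 143 and 128 to 159 CPM in those groups, so that no white matter library overlapped the cortex. The log2 fold changes were 0.98 ± 0.10, 1.14 ± 0.07 and 1.03 ± 0.11, with edgeR adjusted p of 1e-06, 1.54e-09 and 2.92e-05. DNAJC7, a co-chaperone that binds HSP70 and HSP90, gave 1.36 ± 0.13, 1.23 ± 0.08 and 1.23 ± 0.14. Its RefSeq span overlaps CNP, a myelin enzyme gene that rose by 4.28 ± 0.21, 4.44 ± 0.15 and 3.99 ± 0.36 in the same comparisons, and reads of the 2 cannot be told apart where strand was not used in counting.

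HSPA1L, a close relative of the inducible HSP70 genes, rose by 0.44 ± 0.11, 0.49 ± 0.12 and 1.01 ± 0.22 in white matter of fWBI, TBI and control animals. Its value is uncertain, because reads of near-identical HSP70 copies could be split among them and its RefSeq span overlaps another protein-coding gene. The mitochondrial HSPD1 was 0.34 ± 0.09 higher in fWBI and 0.37 ± 0.11 higher in control animals and was not called in TBI animals (0.07 ± 0.07), while its partner HSPE1 was lower in all 3 groups, at -1.21 ± 0.10, -0.94 ± 0.10 and -0.66 ± 0.19 in fWBI, TBI and control animals. HSPA5 was higher in white matter in fWBI animals (0.78 ± 0.16, edgeR adjusted p = 0.000771) and was not called in TBI (-0.03 ± 0.17, edgeR adjusted p = 0.862) or control animals (0.59 ± 0.34, edgeR adjusted p = 0.148). DNAJC14, a J-domain protein of the endoplasmic reticulum, was higher by 0.55 ± 0.09 in fWBI and 0.37 ± 0.07 in TBI animals, and it was not called in controls (0.22 ± 0.10).

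The genes lower in white matter were led by HSPA12A and DNAJA4. HSPA12A had 9.02 to 18.6 CPM in fWBI white matter, against 88.4 to 143 CPM in the fWBI prefrontal cortex, and 5.73 to 15.2 CPM in TBI white matter, against 122 to 170 CPM in the TBI prefrontal cortex. Its log2 fold change was -3.24 ± 0.19 in fWBI, -3.71 ± 0.14 in TBI and -2.37 ± 0.55 in control animals, and it was -3.80 ± 0.15 in controls without the 2 libraries with high neuronal markers. DNAJA4 fell by 2.63, 3.15 and 1.91 on the log2 scale in the 3 groups, with SE of 0.21, 0.15 and 0.34. HSPBP1 gave -1.72 ± 0.15, -1.68 ± 0.09 and -1.49 ± 0.17.

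All 3 HSP110 genes were lower in the white matter of fWBI and TBI animals, the third being HSPA4 at -0.25 ± 0.08 and -0.47 ± 0.07; in controls HSPA4 was not called (-0.15 ± 0.11). HSPH1 gave -1.62 ± 0.10 in fWBI, -1.82 ± 0.14 in TBI and -0.89 ± 0.25 in control animals, and HSPA4L -1.42 ± 0.08, -1.44 ± 0.08 and -0.68 ± 0.17. In controls without animals 1 and 3 these values were -1.36 ± 0.18 for HSPH1 and -1.03 ± 0.11 for HSPA4L. DNAJB5 gave -0.95 ± 0.13 in fWBI and -0.94 ± 0.13 in control animals, and in TBI animals it gave -0.25 ± 0.12 without a call (edgeR adjusted p = 0.0772). HSP90AB1 gave -0.98 ± 0.26, -0.96 ± 0.13 and -1.20 ± 0.21, and this value is uncertain because HSP90AB1 has near-identical processed copies in primate genomes.

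**Figure D4:**
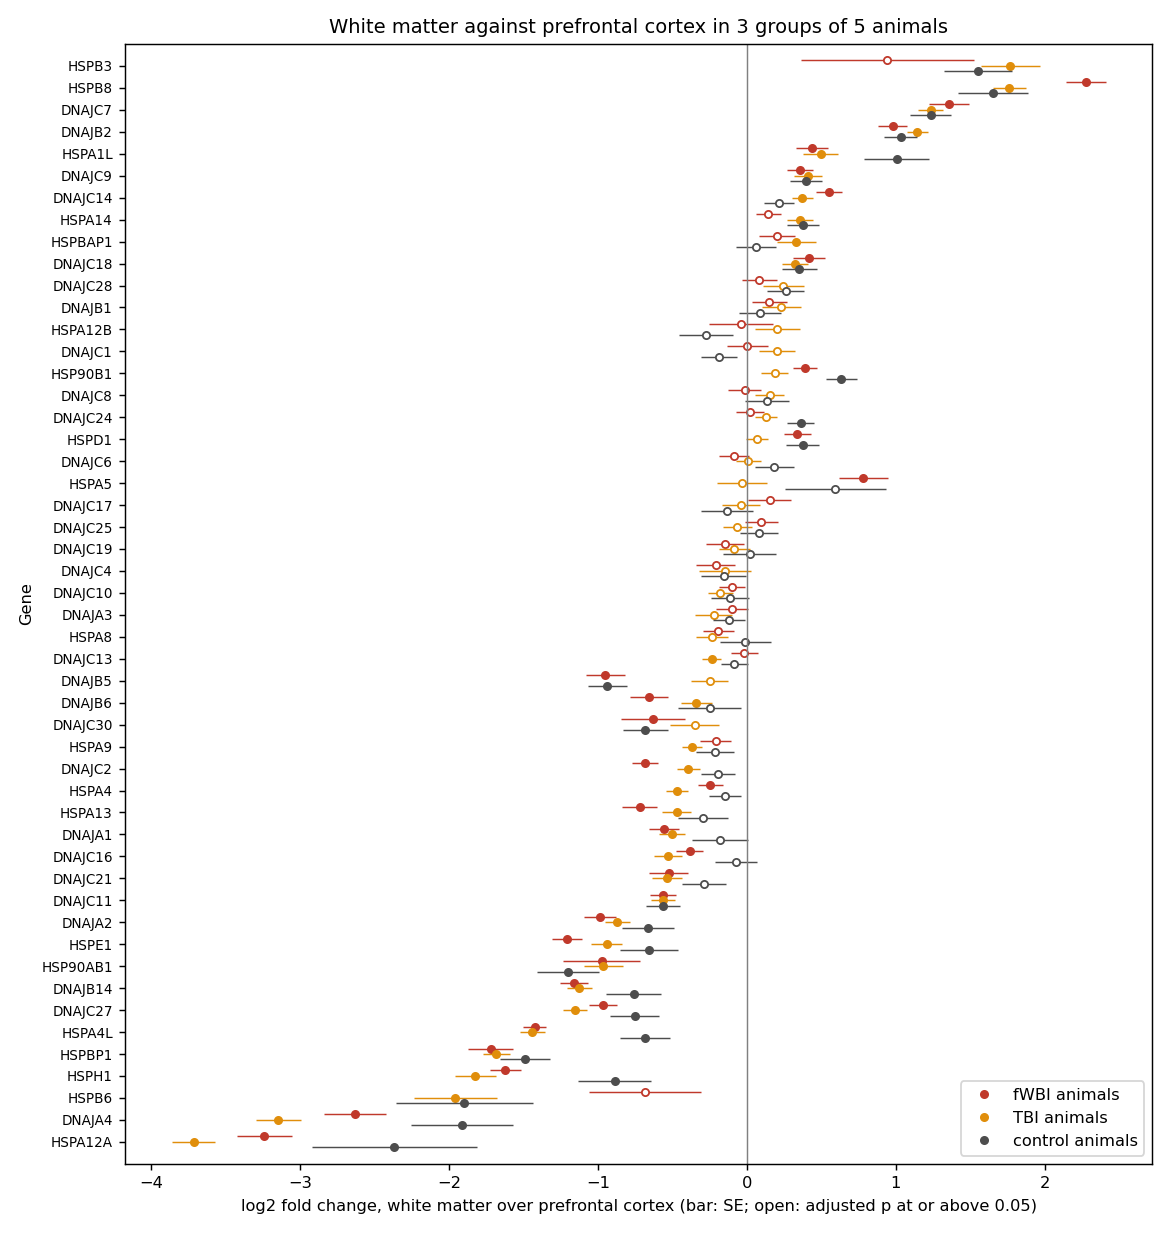
Log2 fold change (x axis; bars are SE) of white matter over prefrontal cortex for 50 chaperone genes in fWBI, TBI and control animals, ordered by the TBI value; open points did not pass an adjusted p of 0.05 in edgeR. HSPB8, HSPB3, DNAJC7 and DNAJB2 lie at the top and HSPA12A and DNAJA4 at the bottom.

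Hippocampus and prefrontal cortex differed in fewer members. In control animals 4 of 50 were called (2 higher and 2 lower in the hippocampus), against 15.1% of all genes (7.73% higher, 7.32% lower). HSP90AB1 had 8.77, 8.84, 6.26, 9.91 and 6.01 CPM in the hippocampus, against 31.2, 22.5, 20.7, 24.8 and 29.4 CPM in the prefrontal cortex of the same animals, with no overlap (-1.70 ± 0.21, edgeR adjusted p = 0.000372). As in white matter, its value is uncertain because of the near-identical processed copies of this gene. HSPB6 was also lower (-1.63 ± 0.46, edgeR adjusted p = 0.0333), while DNAJC25, a membrane J-domain protein, was higher (0.61 ± 0.13, edgeR adjusted p = 0.00849) and HSP90B1 slightly higher (0.36 ± 0.11, edgeR adjusted p = 0.042). Leaving out animal 2, 3 or 5 left 2 calls each, with HSPB6 and HSP90B1 no longer called, and the shares of all genes in those fits are not given here. White matter against hippocampus gave 24 calls (9 higher, 15 lower), against 56% of all genes (28.2% higher, 27.9% lower). HSPB3 (1.89 ± 0.24), HSPB8 (1.77 ± 0.24), DNAJC7 (1.18 ± 0.14), DNAJB2 (1.07 ± 0.11) and HSPA1L (0.80 ± 0.22) were the largest rises, and DNAJA4 (-2.34 ± 0.35), HSPA12A (-2.19 ± 0.55), HSPBP1 (-1.08 ± 0.17), HSPA4L (-0.95 ± 0.17) and HSPH1 (-0.92 ± 0.24) the largest falls. Without the white matter of control animals 1 and 3, HSPA12A (-3.61 ± 0.14) fell further than DNAJA4, and HSPH1 was at -1.42 ± 0.19, HSPBP1 at -1.38 ± 0.14 and HSPA4L at -1.30 ± 0.11.

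The 10 members of the heat-inducible list differed widely in the share of their variance that lay among animals of 1 group. Differences among animals took 91.3% of the variance of DNAJB1's log2 CPM and 62.1% of that of HSPA1L, but 13.1% for HSPA4L and 13.4% for HSPB8. The median was 28.62% over the 10, with 4 above and 6 below the members' median of 40.84%, and it was 32.07% for all genes. This share also depends on the part that region took, which was 6.36% for DNAJB1 and 77.4% for HSPB8. In white matter, hippocampus and prefrontal cortex, the SD within groups was 0.47, 0.19 and 0.26 log2 units for DNAJB1. For HSPB8 it was 0.41, 0.42 and 0.42, so a low share does not mean that animals varied little. Control animal 3 was high in several of the 10: DNAJB1 had 50.6, 30.5 and 33.7 CPM in its white matter, hippocampus and prefrontal cortex, the highest of 15 animals in each region. HSPA4L, at 135, 192 and 159 CPM, was likewise highest in each of the 3. HSPH1, at 653, 851 and 814 CPM, and HSPA1L, at 121, 48.2 and 36.6 CPM, were highest in white matter and hippocampus. The white matter library of this animal is one with high neuronal markers. Of the 10 members, 9, 6 and 7 lay above the region's median in its white matter, hippocampus and prefrontal cortex. HSPB8 was low in it, at rank 14, 12 and 14 of 15 in those regions. HSPE1 was the lowest of 15 in its hippocampus and HSP90AB1 in its prefrontal cortex.

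Other animals were low. In the prefrontal cortex of control animal 1, 8 of the 10 members of that list were the lowest of 15 animals, among them DNAJA1 with 267 CPM and HSPA8 with 1685 CPM. In its white matter and hippocampus 1 of the 10 was lowest. In the white matter of TBI animal 2, 5 of the 10 were lowest, with HSPH1 at 102 CPM and DNAJB1 at 18.4 CPM. In the prefrontal cortex of TBI animal 4, 4 were highest, and in the hippocampus of fWBI animal 1, 4 were lowest. Over all 50 members, the median SD within groups was 0.22, 0.16 and 0.22 log2 units in white matter, hippocampus and prefrontal cortex, against 0.32, 0.26 and 0.29 for all genes.

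**Figure D5:**
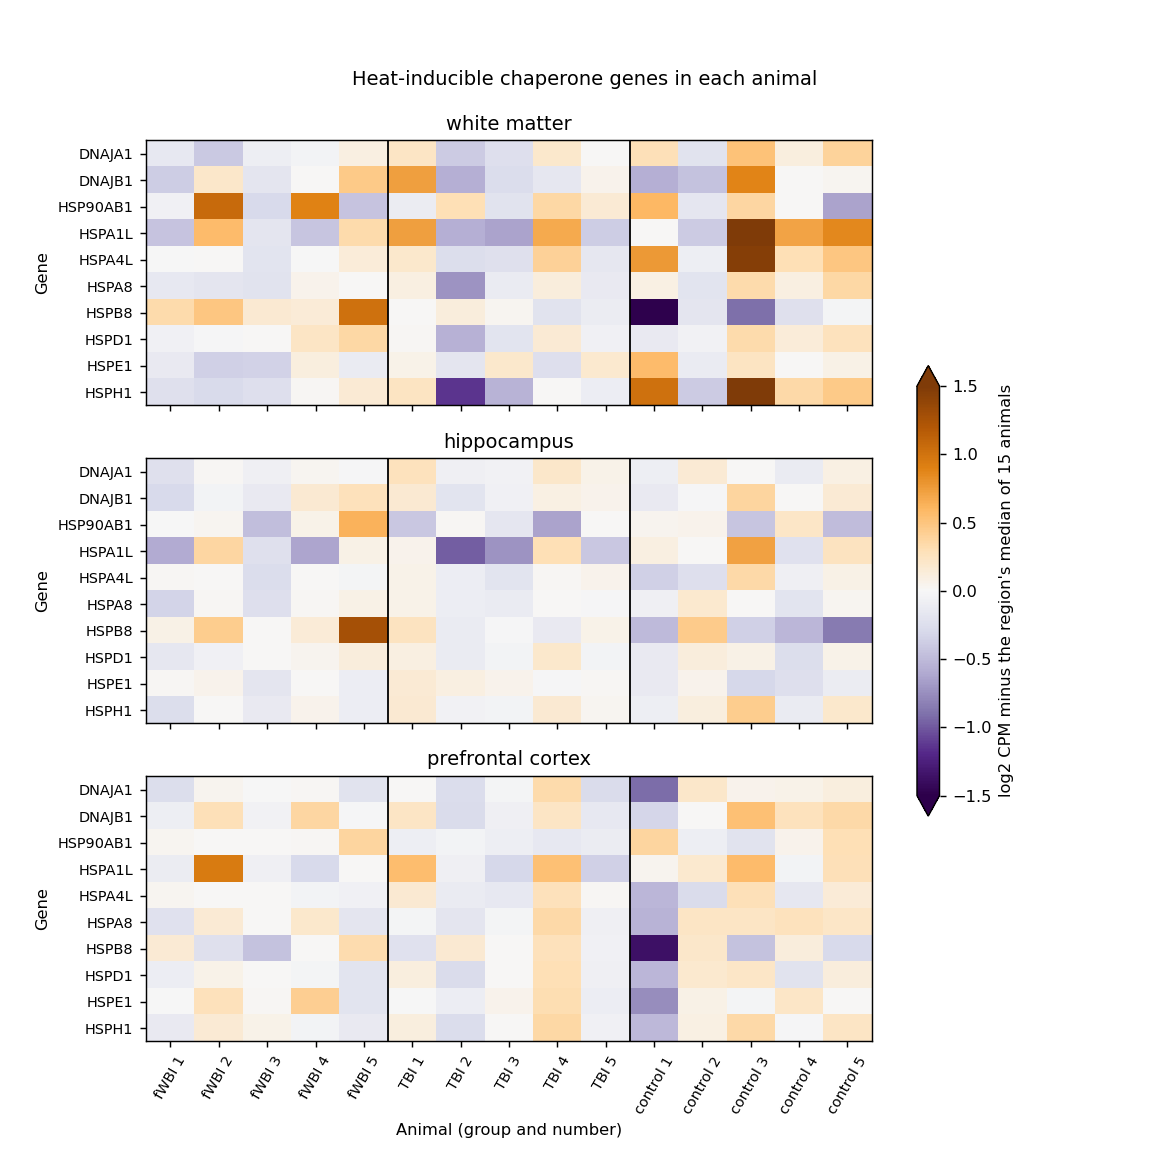
Log2 CPM of the 10 members of the heat-inducible list (which includes the constitutive HSPA8) minus the median of the 15 animals of that region, for fWBI, TBI and control animals from left to right. Brown is above and purple below that median. Control animal 3 is brown for DNAJB1, HSPA4L and HSPH1 in each region, and the prefrontal cortex of control animal 1 is purple for 8 of 10.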

How the data were processed

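The authors deposited raw read counts per gene for 45 libraries of ribosome-depleted total RNA. FastQC, STAR, featureCounts and DESeq2 are named per the submitters' processing notes; no versions are given. Genome build, annotation and whether counting used strand are likewise not given in the sources. Symbols came from a table of gene names, which matched 15769 of 30246 IDs. The RefSeq gene table of assembly T2T-MMU8v2.0 was used only to find overlapping genes, which 28 of the 53 members have.

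Counts were tested with edgeR 4.0.16 in R 4.3.3: filterByExpr, TMM scaling, the quasi-likelihood test and Benjamini-Hochberg adjustment over all genes tested, with a threshold of 0.05. Irradiation comparisons used the 15 libraries of a region. Region comparisons used the 15 libraries of an animal group with a block for animal. Tests of how the fWBI effect differed between regions used all 45 libraries and the same block. Standard errors are the absolute log2 fold change divided by the square root of F. Levels are CPM after TMM scaling over 45 libraries, and log2 CPM used a prior count of 2. The fits were tested on simulated data.

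Each group holds separate animals, and the same animals gave all 3 regions. Animal numbers do not pair the treatment groups: deviations of same-numbered animals of other groups had a median correlation of 0.0128 over 45 pairs, 13 of them above 0.1, against 0.288 between regions of 1 animal. No 2 libraries of a group agreed within sampling noise (smallest chi-square per gene 6.905 over 90 pairs). Named genes were the members called in each comparison, the 3 smallest p-values where fewer than 3 were called, the 5 largest rises and falls between regions, up to 6 interactions, the inducible genes and up to 3 called genes per pathway list. Other genes were named after their values were seen. Members and lists were chosen with earlier results of these data known. Alternatives were DESeq2 1.42.0, its size factors, no filter, the 10 libraries of 2 groups, the block, each animal left out, and, added after seeing the data, control white matter without animals 1 and 3.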

Additional observations from a re-analysis of the deposited data

Results flagged for a closer look

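A library was marked where it lay far from the other 4 of its group by Dixon's test. This held for 24 of 423 groups of 5 libraries over 47 genes, and chance marks about 5% of groups. Of these, 5 were high and 19 low.

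The prefrontal cortex of control animal 1 was low in 7 genes. It had 113 CPM of CCT4 (198 to 214 in the other 4), 91.4 of CCT5 (154 to 168), 152 of CCT8 (260 to 307) and 23.6 of PFDN4 (45.7 to 53.2), all parts of the CCT chaperonin or prefoldin. It also had 99.3 CPM of DNAJB14 (151 to 171), 48.8 of HSBP1 (99.9 to 115) and 67.6 of XBP1 (90.8 to 99.8).

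In fWBI animals, HSPB3 was at 0.101 CPM in the white matter of animal 3 (3.38 to 8.30 in the others) and HSBP1 at 119 CPM in that of animal 2 (154 to 170). In the fWBI hippocampus, CALR was at 259 CPM in animal 5 (205 to 216) and HSPA4L at 125 CPM in animal 3 (147 to 152). In the fWBI prefrontal cortex, DNAJC14 was at 27.5 CPM in animal 1 (30.5 to 31.6), HSPA1L at 47.6 in animal 2 (20.0 to 24.6) and HSP90AB1 at 31.1 in animal 5 (23.8 to 24.3). Animal 4 had 76.4 CPM of DNAJC27 (90.9 to 93.5) and 327 of HSP90B1 (376 to 384).

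In TBI animals, BAG3 was at 15.3 CPM in the white matter of animal 3 (21.2 to 22.5). In the TBI hippocampus, CCT5 was at 224 CPM in animal 2 (251 to 262), and animal 4 had 52.1 CPM of DNAJC2 (57.2 to 58.4) and 61.3 of HSF2 (70.4 to 72.6). In the TBI prefrontal cortex, animal 4 had 33.6 CPM of DNAJC1 (24.8 to 25.6) and 1.9 of ERN1 (4.02 to 5.33). In controls, EIF2AK3 was at 76.5 CPM in the white matter of animal 4 (61.5 to 64.9) and HSF4 at 4.69 CPM in the hippocampus of animal 3 (11.4 to 13.5).

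With all libraries, the test of the difference called the fWBI effect different between white matter and prefrontal cortex for HSPA4L, DNAJC2 and DNAJC14. The log2 differences were -0.712, -0.458 and 0.367. For HSPA4L the effect was also called different between white matter and hippocampus (-0.618). Without the control white matter libraries with high neuronal markers, none of these calls remained. Against prefrontal cortex, HSPA4L was then at -0.37 (edgeR adjusted p = 0.0522), DNAJC2 at -0.37 (0.0998) and DNAJC14 at 0.33 (0.0953). Against hippocampus, HSPA4L was at -0.26 (edgeR adjusted p = 0.227).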

How the results depend on the processing

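DESeq2 gave 5 called members for fWBI against control in white matter, in place of 3, against 20.7% of all genes. It gave 1 in the hippocampus and 1 in the prefrontal cortex, in place of 0, against 1.81% and 3% of all genes. For TBI against control it gave 2 in white matter and 1 in the prefrontal cortex, against 4.96% and 1.64% of all genes. For fWBI against TBI in white matter it gave 2 in place of 1, against 9.95% of all genes. The cause was not tested. Without the white matter of control animals 1 and 3, the counts were 1 for fWBI against control in white matter and 0 for each difference of the fWBI effect between white matter and another region, in fits with fewer samples. Of all genes, 10.8% were called in the first of these fits, and 6.21% and 5.45% for the differences from prefrontal cortex and hippocampus. With animal number as a replicate block, which does not pair the treatment groups, 1 member was called for fWBI (DNAJC2, edgeR adjusted p = 0.0406) and 1 for TBI (DNAJB5, edgeR adjusted p = 0.0455) against control in the prefrontal cortex. Over all genes, 293 and 56 were called in those fits. Without the replicate block of animals, the difference of the fWBI effect between white matter and hippocampus gave 0 members, with 1562 called over all genes. Leaving out 1 animal at a time gave 2 to 6 calls for fWBI against control in white matter (6 without control animal 2), 0 to 2 in the hippocampus and 0 to 1 in the prefrontal cortex. It gave 0 to 1 for TBI in the prefrontal cortex, 1 to 2 for fWBI against TBI in white matter, and 2 to 4 for hippocampus against prefrontal cortex in controls (2 without animals 2, 3 or 5). For differences of the fWBI effect it gave 1 to 6 against prefrontal cortex (1 without fWBI animal 2, 6 without control animal 2) and 0 to 2 against hippocampus (0 without control animals 1 or 3, 2 without control animal 2). The shares of all genes in these fits with 1 animal left out are not given here, so these counts have no background. Over single genes and alternatives, 1861 values kept direction and side of the threshold, 46 changed sign with a call under neither setting, 103 lost their call, 19 gained one and 0 changed sign with a call. Genes with few counts, such as HSPB3 and HSPB6, are limited by depth.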

Other observations

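Genes that work with the chaperones also differed between white matter and prefrontal cortex. Of 12 genes of the endoplasmic reticulum stress response, 11 were higher and 0 lower in fWBI animals, 9 higher and 1 lower in TBI animals, and 8 higher and 0 lower in control animals. The lectin chaperone CALR gave log2 fold changes of 0.59 ± 0.07, 0.53 ± 0.08 and 0.75 ± 0.11 in fWBI, TBI and control animals (SE, n = 5 each). The disulfide isomerase PDIA3 gave 0.51 ± 0.09, 0.43 ± 0.07 and 0.56 ± 0.12, and all these values passed the threshold in edgeR. The share of all genes called was 73% in fWBI (35.7% higher, 37.3% lower), 75.2% in TBI (37.2% higher, 38% lower) and 61% in control animals (29.6% higher, 31.4% lower).

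Of 18 co-chaperones of HSP70 and HSP90, 6 were higher and 11 lower in fWBI and in TBI animals, and 5 higher and 4 lower in control animals. The background for these counts and for those of the CCT chaperonin and prefoldin below is the share of all genes. It was 35.7% higher and 37.3% lower in fWBI, 37.2% and 38% in TBI, and 29.6% and 31.4% in control animals. Differences between the shares were not tested. BAG4, a nucleotide exchange factor, gave -1.55 ± 0.09, -1.46 ± 0.07 and -1.01 ± 0.21 in fWBI, TBI and control animals. TRAP1, the mitochondrial HSP90, gave -0.67 ± 0.10, -0.69 ± 0.07 and -0.58 ± 0.11. Of 13 genes of the CCT chaperonin and prefoldin, 1 was higher and 6 lower in fWBI animals, 3 higher and 5 lower in TBI animals, and 0 higher and 3 lower in control animals, with CCT8 at -1.11 ± 0.11, -1.14 ± 0.09 and -0.77 ± 0.22. Among the heat shock factor genes, HSF4 was lower (-0.96 ± 0.19, -0.83 ± 0.20 and -0.95 ± 0.23) and HSBP1, which binds heat shock factors, higher (0.72 ± 0.12, 0.94 ± 0.11 and 0.64 ± 0.19) in all 3 groups. The control values include the white matter libraries with high neuronal markers. Without these libraries, controls gave -1.36 ± 0.16 for BAG4, -0.71 ± 0.12 for TRAP1 and -1.11 ± 0.18 for CCT8. HSF4 was then at -1.32 ± 0.22 and HSBP1 at 0.67 ± 0.22 in controls.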
